A study of Mus musculus with 3 samples.

Results

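The fibroblast growth factor (FGF) genes described here are 5 ligands, *Fgf1*, *Fgf2*, *Fgf7*, *Fgf10* and *Fgf18*, and the 4 receptors *Fgfr1*, *Fgfr2*, *Fgfr3* and *Fgfr4*. They were chosen by name, and all 9 were present among the 32285 genes of the count matrices. The study asked what loss of matrix Gla protein (MGP), an inhibitor of calcification and of bone morphogenetic proteins, does to white fat. Inguinal stromal vascular fraction (SVF) cells, freed by collagenase from the fat pad and depleted of CD45-positive and dead cells by sorting, were sequenced with the 10x Genomics 3′ v3 kit. All mice were 4 weeks old. There was 1 library for each genotype, Wild-type, Mgp-KO (global deletion) and Pd-KO (floxed *Mgp* deleted through the *Pdgfra*-Cre transgene, thus in cells with a history of *Pdgfra* promoter activity), and each library pooled mice of both sexes. The Pd-KO library is set against the same Wild-type library as the Mgp-KO library, so the 2 comparisons share their control, and no library of floxed mice without Cre was analysed here. With no replicate libraries, no test between genotypes was possible, and every interval below is a 95% interval for counting error only.

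FGF ligands are secreted proteins that bind receptor tyrosine kinases on nearby cells, with heparan sulfate chains of the cell surface as part of the complex. *Fgf7* and *Fgf10* are ligands made by mesenchymal cells that act on the epithelial splice form of *Fgfr2*. *Fgf10* and this receptor take part in the growth of the mammary gland into the fat pad, which is the tissue sampled here. *Fgf2* acts mainly on *Fgfr1* and is a classical growth factor of preadipocytes, *Fgf1* can bind all of the receptors, and *Fgf18* acts mainly through *Fgfr3*. Counts from the 3′ end of transcripts do not separate the splice forms of a receptor.

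The sequence upstream of a start site is shown for the 3 ligands whose highest stromal level lay in different cells (*Fgf10*, *Fgf7* and *Fgf18*). Each run is the 250 bases before the RefSeq start on GRCm38.p6, at chr13:118714449-118714698 (+) for *Fgf10*, chr2:126034408-126034657 (+) for *Fgf7* and chr11:33147401-33147650 (−) for *Fgf18*, and capitals mark a GC box (GGGCGG) or a CCAAT box on either strand.
Fgf10: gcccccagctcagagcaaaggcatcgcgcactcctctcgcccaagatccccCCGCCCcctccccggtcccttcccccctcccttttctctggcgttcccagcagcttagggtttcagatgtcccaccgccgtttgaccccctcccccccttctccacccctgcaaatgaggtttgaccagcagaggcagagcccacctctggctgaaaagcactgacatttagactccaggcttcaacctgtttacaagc
Fgf7: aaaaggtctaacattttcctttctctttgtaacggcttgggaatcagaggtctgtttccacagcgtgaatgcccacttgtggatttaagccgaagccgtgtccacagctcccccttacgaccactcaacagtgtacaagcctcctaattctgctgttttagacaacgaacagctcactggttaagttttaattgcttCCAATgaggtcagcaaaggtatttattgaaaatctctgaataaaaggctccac
Fgf18: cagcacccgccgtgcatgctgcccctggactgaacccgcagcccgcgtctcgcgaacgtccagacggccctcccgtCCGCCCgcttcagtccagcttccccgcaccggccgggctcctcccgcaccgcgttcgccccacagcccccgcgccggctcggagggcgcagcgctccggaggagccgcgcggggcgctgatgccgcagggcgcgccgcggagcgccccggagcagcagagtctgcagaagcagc
These windows differed in base composition, with 61.2% G and C for *Fgf10*, 43.6% for *Fgf7* and 77.2% for *Fgf18*, against a median of 52% over 27025 mouse promoters. *Fgf10* and *Fgf18* each held 1 GC box, which 32.9% of all promoters hold. The *Fgf7* window held none and carried 1 CCAAT box, found in 34.5% of promoters. None of the 7 members with a RefSeq promoter entry held TATAAA, which 13.0% of promoters hold. The E-box letters CANNTG, found in 66.0% of promoters, occurred 2 times for *Fgf10*, 1 time for *Fgf7* and not for *Fgf18*. In the GENCODE M21 annotation *Fgf10* starts further upstream, at position 118669791, so that its window lies inside that longer gene model.

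After barcodes with fewer than 2000 unique molecular identifiers (UMIs) or more than 10% mitochondrial UMIs were left out, 10511 cells remained in the Wild-type library, 12575 in Mgp-KO and 8819 in Pd-KO, with a median of 12802, 6445 and 8269 UMIs. The files held 184102026, 93212243 and 83942865 UMIs in all. Pairs of libraries shared 35 to 40 barcodes. *Mgp* itself stood at 495 CPM (UMIs of the gene per 1000000 UMIs) in stromal cells of the Wild-type library and at 1.90 and 0.998 CPM in the Mgp-KO and Pd-KO libraries, as the labels state. Female cells made up 35.1%, 60.6% and 32.5% of the libraries and male cells 35.1%, 14.7% and 39.5%, so the sexes are not balanced between genotypes.

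Cells were assigned to a type by gates on marker genes that include no FGF gene. The stromal gate (8 markers, among them *Pdgfra*, *Dcn* and *Col1a1*) held 7490, 11165 and 6941 cells, and all 8 markers were higher inside it than outside in each library. Within it, interstitial progenitors (*Dpp4*, *Pi16*), preadipocytes (*Icam1*, *Pparg*), adipogenesis-regulatory cells (Areg, *F3* and *Gdf10*), *Col18a1* stroma and *Crabp1* stroma were separated by marker scores. Scores were standardized within the stromal cells of each library, so a subtype is defined relative to its own library. Their own marker lists stood at 24406, 12962 and 8736 CPM in preadipocytes and at 1363, 2492 and 2303 CPM in *Col18a1* stroma. From 12.3% to 17.0% of stromal cells lay within 0.1 of the score threshold, so these subtypes are ranges rather than sharp classes. Stromal cells with no score at the threshold, 1531, 3224 and 2093 cells, entered none of the subtypes. The luminal epithelial gate, the inner layer of the mammary ducts, held 281, 526 and 106 cells, and the basal epithelial gate 36, 138 and 20. Endothelial cells numbered 749, 218 and 670, and mural cells (pericytes and smooth muscle) 888, 133 and 441. Levels are CPM of the summed UMIs of a gate, and a gene was called higher or lower where the log2 ratio of 2 levels reached 1 in size, its interval left out 0 and at least 50 UMIs had been counted over both.

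*Fgf10* was a stromal transcript. In the stromal gate it stood at 139 CPM (137 to 142) in the Wild-type library, 108 CPM (105 to 110) in the Mgp-KO library and 135 CPM (132 to 137) in the Pd-KO library, and this gate held 89.1%, 97.2% and 94.9% of all its UMIs in kept cells. In luminal cells the levels were 5.91, 0.811 and 7.79 CPM. The luminal level was lower than the stromal one by a log2 ratio of −4.56 (−5.07 to −4.10), −7.05 (−8.93 to −5.70) and −4.11 (−5.24 to −3.18). After each cell was thinned to 2000 UMIs, 17.7%, 13.1% and 15.8% of stromal cells kept an *Fgf10* UMI, against 1.07% of Wild-type luminal cells. None of the 526 and 106 luminal cells of Mgp-KO and Pd-KO kept one, but before thinning 10.7%, 0.760% and 2.83% of luminal cells of the 3 libraries carried an *Fgf10* UMI (30, 4 and 3 cells), so the thinned shares describe cells with a UMI at that depth and not cells without the transcript. Free RNA, taken from barcodes with 10 to 100 UMIs, held *Fgf10* at 40.0, 82.2 and 176 CPM, above the luminal level in each library and, in Pd-KO, also above the stromal level. The part of free RNA in these levels was not tested. The luminal gate also carried a median of 22.0 stromal marker UMIs per 10000 in the Wild-type library, against 3.52 and 7.46 in the knockout libraries. Cells of other gates with high stromal marker levels had been set aside, and with them the Wild-type ratio of stromal over luminal cells was 2.28 in place of 4.56.

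Among stromal cells *Fgf10* was highest in *Col18a1* stroma or in preadipocytes. The markers of *Col18a1* stroma are genes that the paper names for stromal clusters of these same data, and it names *Fgf10* beside them. A high *Fgf10* in this gate was therefore not an independent finding. The paper names *Col18a1*, *Sdc1* and *Nxn* for its clusters ASC5 and ASC7. It names *Cdh11* and *Fgf10* for ASC5, and *Slit2* and *Frem1* for ASC7. The gate thus pools markers of both clusters, and their mix within it was not tested. *Col18a1* stroma, named for the basement membrane collagen of its marker list, stood at 345 CPM (335 to 355), 220 CPM (210 to 229) and 604 CPM (581 to 627) in the libraries in the same order. Preadipocytes stood at 215 CPM (210 to 221), 239 CPM (231 to 247) and 374 CPM (362 to 386). Over both sexes *Col18a1* stroma stood highest in the Wild-type and Pd-KO libraries and preadipocytes in the Mgp-KO library, each time with intervals that did not meet. The Mgp-KO order turned with sex: female cells stood at 202 CPM in *Col18a1* stroma and 239 CPM in preadipocytes, and male cells at 528 CPM (49 cells) and 261 CPM. Adipocytes, a gate of 158, 36 and 25 cells, came next among the named gates with 88.1, 107 and 210 CPM. Interstitial progenitors were low, at 36.8, 33.0 and 23.8 CPM. The log2 ratio of *Col18a1* stroma over interstitial progenitors was 3.23 (3.13 to 3.33), 2.74 (2.62 to 2.86) and 4.66 (4.53 to 4.80).

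*Fgf7*, keratinocyte growth factor, was also almost wholly stromal but was highest in other cells. The stromal gate held 90.8%, 97.8% and 94.8% of its UMIs, at 48.9, 57.6 and 70.1 CPM. Areg cells stood highest in every library, at 82.0 CPM (76.9 to 87.4), 94.4 CPM (86.8 to 102) and 117 CPM (108 to 126). Preadipocytes followed among the named gates, with 53.6, 57.7 and 83.8 CPM, and interstitial progenitors held 39.2, 50.5 and 45.3 CPM. Stromal cells outside the named subtypes stood at 57.8, 73.6 and 82.5 CPM. In the Mgp-KO library that was above preadipocytes, by intervals that did not meet. Areg cells exceeded interstitial progenitors by a log2 ratio of 1.07, 0.90 and 1.36, which passed the fold in the Wild-type and Pd-KO libraries only. The ligand with which *Fgf7* shares its receptor was thus highest elsewhere, since *Fgf10* in Areg cells stood at 39.1, 52.5 and 81.3 CPM. Luminal cells held 13, 3 and 1 *Fgf7* UMIs in all. Free RNA held *Fgf7* at 30.5, 39.2 and 55.0 CPM.

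Among gates of at least 20 cells, *Fgf2* and *Fgf18* were both highest in interstitial progenitors. *Fgf2* stood there at 46.1 CPM (43.7 to 48.7), 70.3 CPM (66.9 to 73.8) and 63.2 CPM (60.0 to 66.6). In preadipocytes it stood at 6.13, 23.9 and 17.6 CPM and in *Col18a1* stroma at 7.03, 13.8 and 18.1 CPM. The interstitial level was apart from all other gates of that size in the Wild-type and Mgp-KO libraries, whereas in the Pd-KO library it was not apart from that of 37 Schwann cells (56.7 CPM). The 8 Schwann cells of the Mgp-KO library, below that size, stood at 93.0 CPM (11.3 to 336) from 2 UMIs. Free RNA held *Fgf2* at 21.8, 25.3 and 32.3 CPM, above the levels of preadipocytes and *Col18a1* stroma in each library.

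*Fgf18*, best known from skeletal and lung development, stood in interstitial progenitors at 63.0 CPM (60.1 to 66.0), 79.4 CPM (75.8 to 83.1) and 62.9 CPM (59.7 to 66.3). Preadipocytes held 10.7, 17.7 and 21.5 CPM. *Col18a1* stroma, where *Fgf10* was high, held 2.42, 5.68 and 12.4 CPM. Free RNA held *Fgf18* at 8.70, 17.7 and 11.7 CPM. *Fgf10* and *Fgf18* thus lay at opposite ends of the stroma: the log2 ratio of *Col18a1* stroma over interstitial progenitors was −4.70 (−5.25 to −4.21), −3.80 (−4.22 to −3.41) and −2.34 (−2.76 to −1.95) for *Fgf18*. For *Fgf2* it was −2.71, −2.35 and −1.81. Of the 7 members with enough UMIs in these gates, 1 was higher in *Col18a1* stroma in each library, against 13.1%, 15.4% and 11.8% of all genes tested. The lower members numbered 3, 2 and 2 of 7, against 8.71%, 7.93% and 6.83% of all genes. For Areg cells over interstitial progenitors 1, 0 and 2 of 7 members were higher, against 7.5%, 7.13% and 9.14% of all genes.

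**Figure D1:**
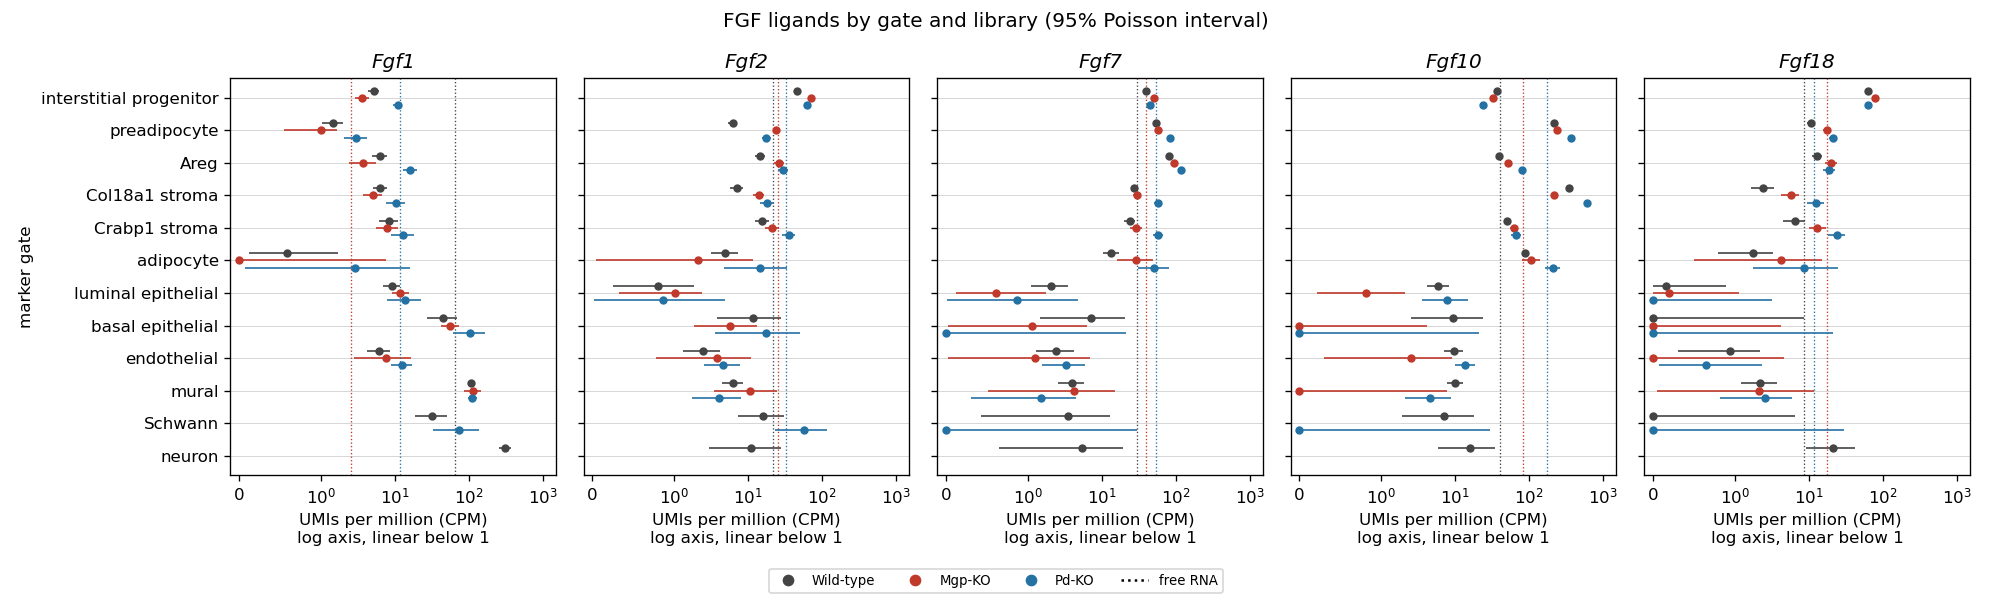
Level of each ligand (CPM, log axis that is linear below 1) in each marker gate of at least 20 cells, for the 3 libraries, with 95% Poisson intervals and the level in free RNA as dotted lines. *Fgf10* peaks in *Col18a1* stroma and preadipocytes, *Fgf7* in Areg cells, *Fgf2* and *Fgf18* in interstitial progenitors, and *Fgf1* outside the stroma.

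*Fgf1*, which lacks a signal peptide, was the one ligand that was highest outside the stroma. Mural cells stood at 109 CPM (101 to 118), 114 CPM (85.4 to 148) and 112 CPM (97.8 to 128), so their level differed by less than counting error between the libraries. They held 43.6%, 11.3% and 22.9% of the *Fgf1* UMIs of their library. The log2 ratio of mural over stromal cells was 4.67, 5.20 and 3.74. *Fgf1* was the only member higher in mural cells (1 of 8, 7 and 7 tested), against 15.6%, 12.5% and 19.4% of all genes. Neurons, a gate of 90 cells found in the Wild-type library, had the highest level of all, at 314 CPM (260 to 377). Basal epithelial cells stood at 44.7, 56.5 and 104 CPM and luminal cells at 9.26, 12.0 and 13.9 CPM. The stromal level was low, at 4.30, 3.08 and 8.40 CPM, and in the Wild-type and Pd-KO libraries below that of free RNA (66.1 and 12.0 CPM, against 2.53 CPM in the Mgp-KO library).

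*Fgfr2*, the receptor of *Fgf7* and *Fgf10*, was highest in luminal epithelium in every library. Its luminal level was 173 CPM (162 to 183), 411 CPM (394 to 430) and 731 CPM (682 to 782) in the 3 libraries. In stromal cells it stood at 4.91, 51.2 and 55.5 CPM. The luminal level exceeded the stromal one by a log2 ratio of 5.14 (4.98 to 5.29), 3.01 (2.93 to 3.08) and 3.72 (3.61 to 3.83). After thinning, 23.8%, 46.6% and 56.6% of luminal cells and 0.854%, 8.59% and 9.80% of stromal cells kept an *Fgfr2* UMI. Free RNA held *Fgfr2* at 7.83, 73.4 and 74.2 CPM, above the stromal level in each library. Luminal markers, summed over their list, stood at 48.5, 28.4 and 29.2 CPM in stromal cells, against 16413, 14477 and 14845 CPM in luminal cells. The part of free RNA in the stromal *Fgfr2* level was not tested.

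Within the ducts *Fgfr2* was unevenly spread. Hormone-sensing luminal cells (*Prlr*, *Pgr* and *Esr1*) stood at 204, 468 and 821 CPM, and luminal cells marked by *Elf5* and *Kit*, the alveolar progenitor markers, at 50.6, 138 and 312 CPM. The log2 ratio of the first over the second was 2.01 (1.62 to 2.44) in the Wild-type library and 1.76 (1.48 to 2.06) in the Mgp-KO library. The Pd-KO library had 19 cells of the second kind, too few for this ratio. Basal epithelial cells stood at 54.1, 229 and 403 CPM, below luminal cells in all libraries by intervals that did not meet. Adipocytes followed, with 35.3, 83.7 and 155 CPM.

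*Fgfr1*, the mesenchymal receptor, was higher in stromal than in luminal cells, past the fold in the Mgp-KO library only. It stood at 125, 200 and 231 CPM in stromal cells and at 66.4, 93.3 and 142 CPM in luminal cells, and free RNA held 85.3, 151 and 166 CPM. Interstitial progenitors were highest among stromal cells, at 187 CPM (182 to 192), 234 CPM (228 to 240) and 280 CPM (273 to 287). Basal epithelial cells, with 160, 209 and 184 CPM, overlapped with them except in the Pd-KO library. *Col18a1* stroma held 78.9, 134 and 146 CPM. Endothelial cells were lowest of the larger gates, at 31.9, 36.5 and 20.9 CPM, which is a log2 ratio to stromal cells of −1.97, −2.46 and −3.46.

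*Fgfr3*, which restrains bone growth, was counted 279, 110 and 65 times in all kept cells. Endothelial cells stood at 16.1 CPM (12.9 to 19.9), 20.1 CPM (11.5 to 32.7) and 8.48 CPM (5.54 to 12.4), and luminal cells at 4.47, 8.31 and 10.4 CPM. Among gates of at least 20 cells, endothelial cells led in the Wild-type and Mgp-KO libraries, whereas in the Pd-KO library both gates overlapped. *Fgfr3* was higher in endothelial than in stromal cells by a log2 ratio of 3.97 (3.55 to 4.39) and 5.35 (4.41 to 6.22) in the Wild-type and Mgp-KO libraries. It was the only member higher there (1, 1 and 0 of 8, 8 and 7 tested), against 18.2%, 13.8% and 19.7% of all genes. In Pd-KO *Fgfr3*, at 0.292 CPM in stromal cells, had too few UMIs to be tested (26 endothelial and 19 stromal). *Fgfr4*, a receptor of muscle and liver, was near the limit of detection, with 23, 23 and 34 UMIs in all kept cells, of which 10, 20 and 13 were in stromal cells.

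Over all members, most ligands were lower and *Fgfr2* was higher in luminal than in stromal cells of each library. *Fgf1*, *Fgfr2* and *Fgfr3* were higher in the luminal gate of the Wild-type and Mgp-KO libraries (3 of 8 tested in each) and *Fgfr2* alone in the Pd-KO library (1 of 7), against 17.6%, 18.5% and 21% of all genes tested. In Pd-KO *Fgfr3*, at 10.4 CPM in luminal and 0.292 CPM in stromal cells, had too few UMIs to be tested (12 and 19). *Fgf2*, *Fgf7*, *Fgf10* and *Fgf18* were lower in each library, joined by *Fgfr1* in the Mgp-KO library (4, 5 and 4 members), against 22.7%, 24.4% and 17.4% of all genes.

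**Figure D2:**
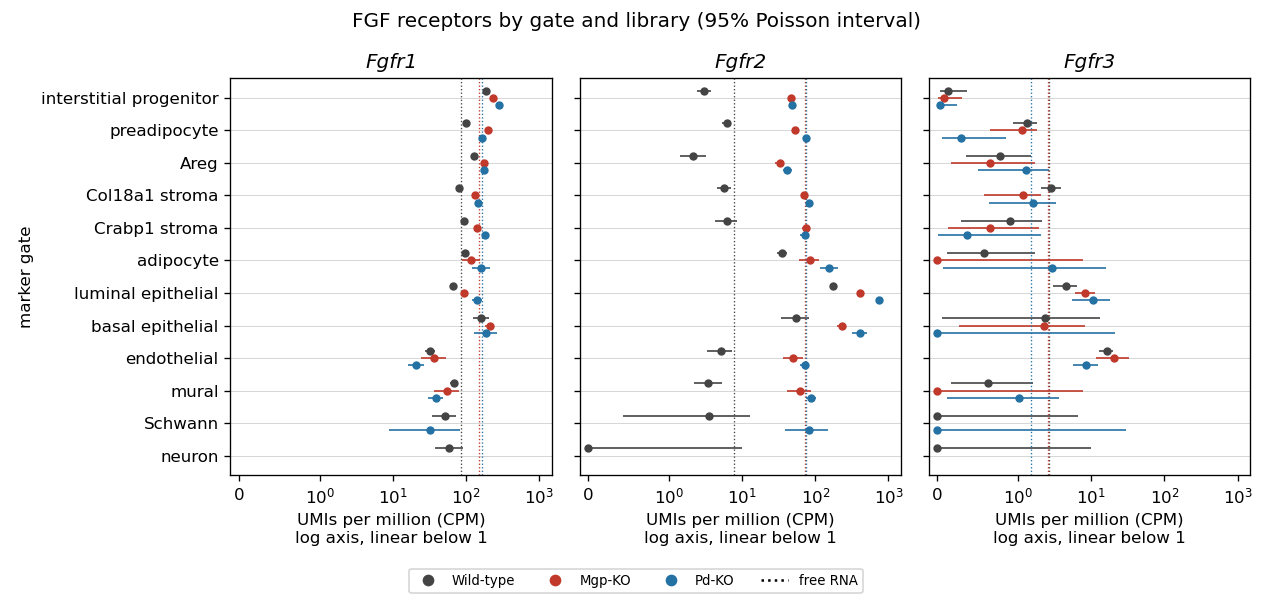
Level of *Fgfr1*, *Fgfr2* and *Fgfr3* (CPM, log axis that is linear below 1) in each marker gate of at least 20 cells, for the 3 libraries, with 95% Poisson intervals and free RNA as dotted lines. *Fgfr2* is highest in luminal cells (173, 411 and 731 CPM), *Fgfr1* in interstitial progenitors and basal cells, and the knockout libraries show *Fgfr2* in nearly every gate.

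The genes most like a member in their level over 34 units of gate and library were sought among 8706 genes, as a description in which units of 1 library share its depth and software. *Clec3b* (Pearson r = 0.96), *Dcn* (0.95, itself a gate marker) and *Cpz* (0.95) were most like *Fgf7*. *Gsc* (0.90), *Lum* (0.89, also a gate marker) and *Gm16263* (0.89) were most like *Fgf10*, and *Lrrn4cl* (0.93) and *Glt8d2* (0.92) were most like *Fgf18*. For the receptors these were *Wnt5a* (0.87), *L3hypdh* (0.83) and *Nfix* (0.82) for *Fgfr1*, and *Etv6* (0.88), *Phkb* (0.88) and *Ptpn4* (0.86) for *Fgfr2*.

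The genotypes were compared within the gates. In stromal cells, Mgp-KO stood against Wild-type at a log2 ratio of 3.38 (3.25 to 3.52) for *Fgfr2*, 1.11 (1.03 to 1.19) for *Fgf2* and −1.06 (−1.63 to −0.52) for *Fgfr3*, the last from 39 against 111 UMIs. For Pd-KO the ratios were 3.50 (3.37 to 3.64), 1.21 (1.13 to 1.29) and −1.82 (−2.60 to −1.11). In each comparison 2 of 8 members tested were thus higher and 1 lower. Of all genes tested, 19.8% were higher and 4.22% lower in Mgp-KO, and 22.4% and 6.99% in Pd-KO. The share of higher members was near that of all genes. With the 5 stromal subtypes weighted equally, 1 member (*Fgfr2*) passed in each knockout, at which *Fgf2* stood at 0.80 and 0.88 and *Fgfr3* at −0.70 and −0.75. The members' median log2 ratio was 0.45 and 0.82, against 0.16 and 0.20 over all genes. These medians were not matched for the genomic span of genes, with which the ratio to Wild-type moved. Over all genes of 30 to 100 kb the median was 0.40 and 0.52. The part of span in the members' median was not tested.

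The other members did not pass the fold in the stromal gate as a whole. The log2 ratio in Mgp-KO and Pd-KO over Wild-type was −0.37 and −0.05 for *Fgf10*, 0.24 and 0.52 for *Fgf7*, 0.66 and 0.75 for *Fgf18*, and 0.67 and 0.88 for *Fgfr1*. The Pd-KO value of *Fgf10* depended on which cells were summed: it was 0.42 (0.36 to 0.48) in female cells, −0.28 (−0.34 to −0.21) in male cells and 0.74 with the stromal subtypes weighted equally. For *Fgf18* in Pd-KO it was 1.31 in female cells, past the fold. For *Fgf1* it was −0.48 (−0.71 to −0.25) and 0.96, which put Pd-KO above Mgp-KO by 1.45 (1.22 to 1.67). That was the only member past the fold between the knockout libraries (1 of 8 higher and 0 lower, against 3.31% and 5.45% of all genes), and it passed in female cells (1.90, 1.61 to 2.19) but not in male cells (0.85, 0.38 to 1.35). *Fgf2* and *Fgfr2* differed by 0.10 and 0.12 between the knockout libraries. Free RNA held *Fgf1* at 2.53 CPM in Mgp-KO and at 12.0 CPM, above the stromal level, in Pd-KO. The part of free RNA in the *Fgf1* ratio was not tested.

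The matrices carry different software versions in their headers, Cell Ranger 4 in Wild-type and 7.1.0 in either knockout, and genotype and software version cannot be told apart in any comparison with Wild-type. The ratio to Wild-type moved with the genomic span of genes. Over genes of less than 10 kb the median log2 ratio was −0.14 in Mgp-KO and −0.25 in Pd-KO. It was 1.15 and 1.34 over genes of 100 to 300 kb, and 2.64 and 2.73 over longer ones, of which 90.3% and 91.3% were higher. Between the knockout libraries, which name the same version, the medians of these ranges lay between −0.09 and 0.25.

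*Fgfr2* has a span of 2961 kb in GENCODE M21 (GRCm38, chr7:130162451-133123350, minus strand), in which 68 other genes lie, and one of 104 kb in RefSeq. The 200 genes nearest to the longer span had a median log2 ratio of 2.96 in Mgp-KO and a like one in Pd-KO, which left 0.42 and 0.50 for *Fgfr2*. With the RefSeq span, *Fgfr2* would fall in the range of 100 to 300 kb, whose medians of 1.15 and 1.34 lay below its ratio. The rise of *Fgfr2* was also seen in every gate large enough to compare, with a log2 ratio in Mgp-KO from 1.25 in luminal cells and adipocytes to 4.14 in mural cells, and in Pd-KO from 2.08 in luminal cells to 4.66 in mural cells. The other members have spans of 15.4 to 122 kb in GENCODE M21. Relative to genes of like span, *Fgf2* stood 0.60 and 0.56 above, whereas *Fgf10* stood −1.33 and −1.12 and *Fgf1* −1.20 and 0.07 from the median. *Fgf2* and *Fgfr2* then no longer passed the fold, and *Fgf10*, with its GENCODE span of 122 kb, did, downward, in both knockouts. With its RefSeq span of 77.9 kb, *Fgf10* would fall in the range of 30 to 100 kb, whose medians were 0.40 and 0.52. Whether *Fgf10* passes the fold with that span was not tested. The part of software or of span in these ratios was not tested.

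**Figure D3:**
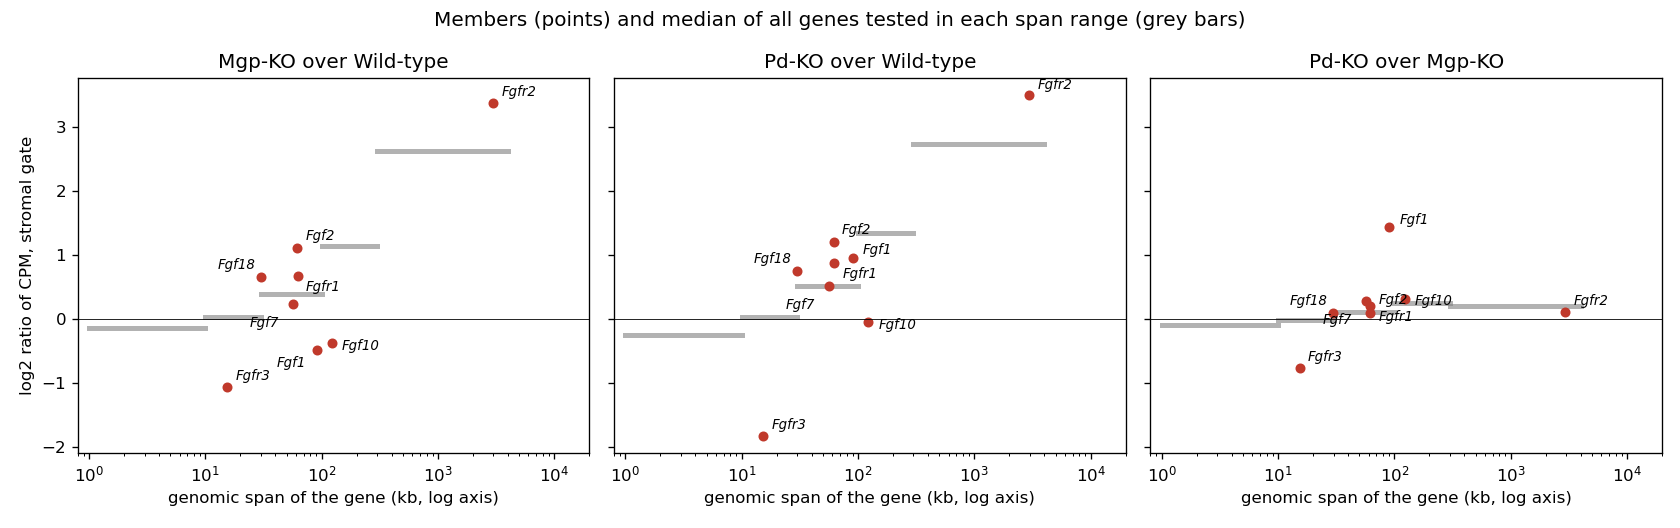
Log2 ratio of stromal CPM for each member (points) against the genomic span of the gene in kb (log axis), with the median of all genes tested in each span range as grey bars, for the 3 pairs of libraries. Both comparisons with Wild-type climb with span, to medians of 2.64 and 2.73 above 300 kb. Pd-KO over Mgp-KO moves less, with medians between −0.09 and 0.25, and *Fgf1* stands at 1.45.

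In luminal cells *Fgfr2* was higher in both knockouts, by a log2 ratio of 1.25 (1.15 to 1.36) in Mgp-KO and 2.08 (1.95 to 2.21) in Pd-KO. It was 1 of 4 members tested that passed in Mgp-KO, against 13.9% of all genes. *Fgfr1* (1.10) joined it in Pd-KO (2 of 3, against 20.2% of all genes). Between the knockout libraries *Fgfr2* differed by 0.83 (0.71 to 0.95), short of the fold. The ratio of luminal over stromal *Fgfr2* was 5.14 in Wild-type against 3.01 and 3.72 in the knockouts, with both levels higher there.

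Within the stroma the ratios between libraries differed by subtype, and each subtype was defined relative to its own library. The part of that definition in these ratios was not tested, nor was that of the mix of ASC5 and ASC7 in *Col18a1* stroma. *Fgf10* in *Col18a1* stroma stood in Mgp-KO below Wild-type, at −0.65 (−0.73 to −0.58), and in Pd-KO above it, at 0.81 (0.74 to 0.88), neither past the fold, and over both sexes it was higher in Pd-KO than in Mgp-KO by 1.46. Mgp-KO over Wild-type was −0.40 (−0.50 to −0.31) in female cells, 941 against 438, and 0.09 (−0.10 to 0.27) in male cells, 49 against 184. Pd-KO over Mgp-KO was 1.86 (1.76 to 1.95) in female cells and −0.13 (−0.34 to 0.08) in male cells. In preadipocytes it stood at 0.15 and 0.80 and in Areg cells at 0.43 and 1.06, and in interstitial progenitors at −0.16 and −0.63. The *Fgf10* levels of Areg cells (39.1, 52.5 and 81.3 CPM) lay near or below free RNA (40.0, 82.2 and 176 CPM). Those of interstitial progenitors lay below it. The part of free RNA in these *Fgf10* ratios was not tested. *Fgf18* in *Col18a1* stroma rose past the fold in both knockouts (1.23 and 2.36), from 33, 54 and 55 UMIs in the 3 libraries. These levels lay below free RNA in Wild-type and Mgp-KO and near it in Pd-KO, and its part in them was not tested. *Fgf18* also passed in *Crabp1* stroma (1.02 and 1.89), from 36, 60 and 65 UMIs. Its levels there of 6.49, 13.2 and 24.0 CPM stood against free RNA at 8.70, 17.7 and 11.7 CPM, whose part was not tested. In interstitial progenitors, where it is highest, *Fgf18* stood at 0.33 and 0.00. That last value joined 0.42 (0.24 to 0.60) in female cells and −0.44 (−0.60 to −0.28) in male cells. *Fgf2* passed the fold in preadipocytes, at 1.96 and 1.52. Its levels there (6.13, 23.9 and 17.6 CPM) lay below free RNA (21.8, 25.3 and 32.3 CPM), whose part was not tested. *Fgf7* passed the fold in *Col18a1* and *Crabp1* stroma of Pd-KO (1.05 and 1.27) but not of Mgp-KO (0.10 and 0.27). Its *Col18a1* stroma levels of 27.8, 29.8 and 57.4 CPM lay near those of free RNA, at 30.5, 39.2 and 55.0 CPM. *Fgf1* in Areg cells stood at −0.72 and 1.39, and in interstitial progenitors at −0.52 and 1.07. The part of free RNA in these *Fgf1* ratios was not tested.

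Sex was called cell by cell, as female where *Xist* but no Y-linked gene was counted and as male in the opposite case. Any UMI of these genes sufficed, and cells with both or neither stayed uncalled. Values over both sexes include uncalled cells. In *Col18a1* stroma 438 female and 184 male cells were called of 796 in Wild-type. The numbers were 941 and 49 of 1128 in Mgp-KO, and 256 and 127 of 466 in Pd-KO. In *Col18a1* stroma *Fgf10* was lower in female than in male cells of the Wild-type library, at 267 against 496 CPM, and of the Mgp-KO library, at 202 against 528 CPM, the latter from 49 male cells. In the Pd-KO library it was higher in female cells, at 731 against 481 CPM. The log2 ratio of female over male was −0.90 (−0.99 to −0.80), −1.39 (−1.57 to −1.20) and 0.60 (0.47 to 0.74). Within sexes, Pd-KO over Wild-type was 1.45 (1.36 to 1.55) in female cells and −0.04 (−0.18 to 0.09) in male cells. The preadipocyte marker list moved with these values in the Wild-type and Mgp-KO libraries, at 11131 against 16075 CPM and 4636 against 9865 CPM in female and male cells of this gate, and stood at 4842 against 4570 CPM in Pd-KO. Its part in the sex difference was not tested, nor was that of the mix of ASC5 and ASC7 in this gate.

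Preadipocytes showed no such spread, with *Fgf10* at 187 and 222, 239 and 261, and 391 and 389 CPM in female and male cells of the 3 libraries. The higher *Fgf1* of Pd-KO stroma was larger in female cells, at 12.6 against 5.71 CPM in male cells (log2 ratio 1.14, 0.85 to 1.43), whereas Wild-type cells stood at 5.20 and 3.82 CPM and Mgp-KO cells at 3.36 and 3.16 CPM. Free RNA, not split by sex, held *Fgf1* at 66.1, 2.53 and 12.0 CPM in the 3 libraries. Its part in these levels was not tested. The paper lists fewer female than male mice in each pool. Cells cannot be assigned to single mice from the counts, so the sexes are no more replicated than the genotypes. Luminal *Fgfr2* stood at 184, 419 and 786 CPM in female cells. Male luminal cells were few, 23, 20 and 14.

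**Figure D4:**
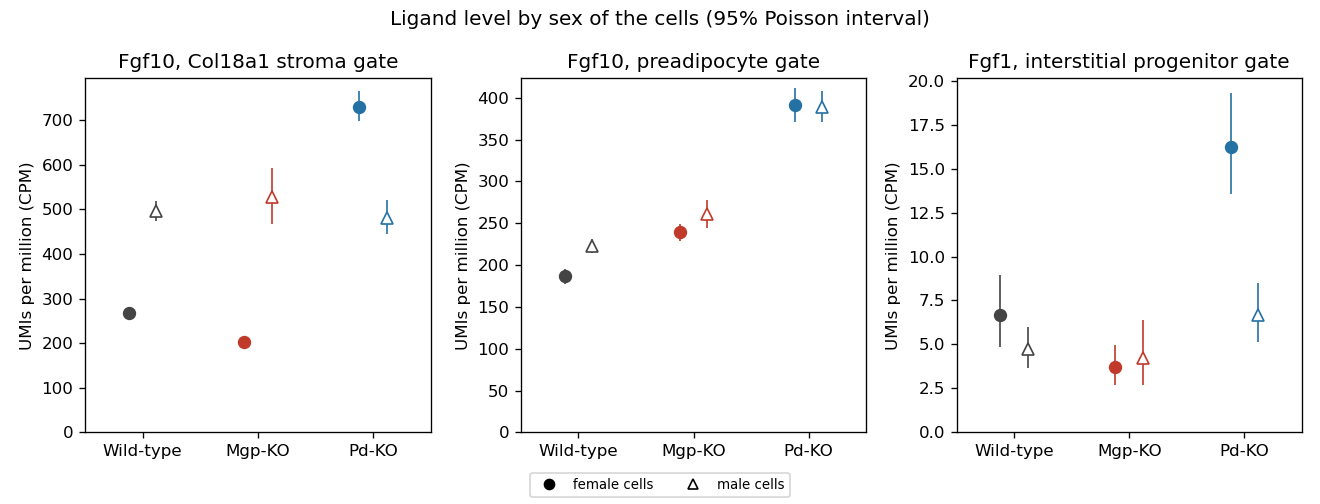
Level (CPM) of *Fgf10* in *Col18a1* stroma and preadipocytes and of *Fgf1* in interstitial progenitors, in female (filled circles) and male cells (open triangles) of the 3 libraries, with 95% Poisson intervals. In *Col18a1* stroma male cells lie above female cells in Wild-type and Mgp-KO and below them in Pd-KO (481 against 731 CPM).

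The rest of the pathway was counted from fixed lists, whose counts stand beside the shares of all genes tested in stromal cells: 19.8% higher and 4.22% lower in Mgp-KO, and 22.4% and 6.99% in Pd-KO. These lists were not matched for gene span, with which the ratio to Wild-type moved. Of genes of 100 to 300 kb 57.2% and 64.1% were higher in Mgp-KO and Pd-KO, and of longer ones 90.3% and 91.3%. The part of span in the list counts was not tested. Of 17 other genes named as FGF family members, 9 had enough UMIs in stromal cells for Mgp-KO over Wild-type. Of these, 6 were higher: *Fgf14* (5.37), *Fgf23* (4.59), *Fgf20* (3.17), *Fgf12* (1.63), *Fgf16* (1.53) and *Fgf13* (1.12). The list was made by name, and whether each codes for a ligand of the receptors was not tested. All were scarce, with *Fgf14* at 7 UMIs in Wild-type stromal cells. In Pd-KO 3 of 7 were higher, *Fgf14* (4.33), *Fgf9* (2.68) and *Fgf12* (2.15), and the metabolic hormone *Fgf21* was lower (−3.94). Of 21 co-receptors, FGF-binding proteins and heparan sulfate proteoglycans, 17 were tested in each. Higher in Mgp-KO were *Gpc6* (3.43), *Cd44* (1.37), *Gpc4* (1.18) and *Flrt2* (1.18). Higher in Pd-KO were *Gpc6* (3.98), *Flrt2* (2.02), *Gpc4* (1.73) and *Gpc3* (1.05), and the proteoglycans *Gpc1* (−1.93) and *Sdc1* (−1.51), the latter a marker of the *Col18a1* gate, were lower. In Pd-KO over Mgp-KO, 1 of 9 other FGF family genes was higher and 4 lower, with a median log2 ratio of −0.58. Of the 17 genes tested in the co-receptor list, 0 were higher and 2 lower. Of all genes, 3.31% were higher and 5.45% lower between these libraries.

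Signal carriers, the proteins that pass the receptor's signal to the ERK kinases, were all 13 tested. The adaptors *Sos2* (1.51 and 1.93), *Gab1* (1.23 and 2.10) and *Frs2* (1.03 and 1.38) were higher in both knockouts, *Frs3* (1.15) and *Sos1* (1.09) in Pd-KO, and none was lower. This makes 3 of 13 higher in Mgp-KO and 5 of 13 in Pd-KO, against 19.8% and 22.4% of all genes. Between the knockout libraries 0 of 13 differed in either direction, where 3.31% of all genes were higher and 5.45% lower.

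Feedback and response genes restrain ERK signalling or are induced by it. In Mgp-KO 3 of 15 were higher (*Fosl1* 1.39, *Spred3* 1.22 and *Spred2* 1.09) and 0 lower, near the 19.8% and 4.22% of all genes, with a median log2 ratio of 0.52 against 0.16 over all genes. In Pd-KO 2 of 16 were higher (*Spred2* 1.12 and *Il17rd* 1.05) and 4 lower (*Fosl1* −2.49, *Dusp4* −1.55, *Etv4* −1.35 and *Dusp6* −1.14), against 22.4% and 6.99% of all genes, with a median of −0.31 against 0.20. Pd-KO over Mgp-KO had 3 of 15 lower, *Fosl1* (−3.88), *Dusp4* (−2.12) and *Etv4* (−1.77), against 5.45% of all genes. Genes of dissociation stress are a list of 10 immediate early and heat shock genes that cells induce while they are being isolated. Of these, 10 of 10 were lower in Pd-KO over Wild-type, with a median of −1.60. In Pd-KO over Mgp-KO 10 of 10 were lower too, with a median of −1.78. In Mgp-KO over Wild-type 1 of 10 was lower and their median was 0.08. Their part in the lower feedback genes was not tested.

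In luminal cells fewer of these genes had enough UMIs, and 13.9% of all genes tested were higher and 2.56% lower in Mgp-KO, and 20.2% and 2.62% in Pd-KO. Feedback genes were higher in 1 of 11 in Mgp-KO (*Spred2* 1.28) and 2 of 11 in Pd-KO (*Spred2* 2.11 and *Rasa1* 1.19), with 0 lower in both. Signal carriers were higher in 4 of 12 in each. Of the co-receptors, 1 of 12 was higher (*Gpc6* 2.75) and 1 lower (*Hspg2* −1.31) in Mgp-KO, and 3 of 11 were higher in Pd-KO (*Gpc6* 3.75, *Gpc4* 1.25 and *Cd44* 1.22). Dissociation stress genes were 2 higher and 2 lower of 10 in Mgp-KO, and 3 of 10 lower in Pd-KO.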

How the data were processed

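For each of 3 libraries the authors deposited unfiltered UMI counts of 32285 genes in all barcodes, with no normalization applied. The submitters' processing notes name Cell Ranger 6.1.1 and GRCm39, the paper's methods name mm10, and the file headers name Cell Ranger 4 (Wild-type) and 7.1.0 (both knockouts). The paper's methods state that Cell Ranger was run at its defaults, for a version that the headers do not name. How introns were counted in the deposited files, and against which annotation, is not given in the sources used here.

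Cells had at least 2000 UMIs and at most 10% mitochondrial UMIs. A cell entered a gate by the number of its markers detected, and cells with markers of several types were set aside as mixed; no doublet caller was run. Cells of a gate other than stromal or adipocyte whose stromal marker level exceeded 25% of the stromal median were also set aside. Gate thresholds were set after the data had been seen, and the members and lists were chosen with earlier results of these data known. UMIs were summed by gate and library and scaled to CPM. Intervals are exact, at 95%: Poisson for CPM, conditional binomial for log2 ratios and Clopper-Pearson for shares. UMIs are single molecules, but intervals cover counting error only, not mice. With 1 library per genotype no p-value was computed. Named genes are the 9 members in every gate and, from the pathway lists, those past the fold (the largest 8 per list). Likeness used log2(CPM + 1) over gates of at least 20 cells and genes of at least 50 CPM in one of them. The 3 most like genes are named, except 1 that is not reported here. Gene spans were those of GENCODE M21 (GRCm38) and covered 99.6% of genes. Promoters came from RefSeq GRCm38.p6 and matched 7 of 9 members. The intervals and the fold rule were tested on simulated counts. Alternatives were other UMI and mitochondrial limits, stricter gates, equal weighting of cells, thinning to 2000 UMIs, each sex, median centring, span matching over 200 genes and no low-count filter. Python 3.11.15, numpy 2.4.6, pandas 2.3.3, scipy 1.17.1 and matplotlib 3.10.9 were used.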

Additional observations from a re-analysis of the deposited data

Results flagged for a closer look

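*Fgf10* in Pd-KO over Wild-type passed the fold in opposite directions in different gates, with a log2 ratio of 1.06 in Areg cells and 1.25 in adipocytes (25 Pd-KO cells) and of −1.14 in mural cells, where it was low in both libraries. The difference between these gates was not tested. The Areg levels in Wild-type and Pd-KO (39.1 and 81.3 CPM) lay near or below free RNA (40.0 and 176 CPM). The Pd-KO adipocyte level, 210 CPM (164 to 264), overlapped that of free RNA. The part of free RNA in these ratios was not tested.

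*Fgfr4* was counted 6 times in the 3 Pd-KO cells of the skeletal muscle gate, a gate that enters no comparison, and all 6 UMIs came from 2 of the cells. That is 371 CPM (136 to 807), against 34 *Fgfr4* UMIs in all kept cells of that library.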

How the results depend on the processing

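No paired analysis was possible because there is 1 library per genotype. The Wild-type *Fgf10* ratio of stromal over luminal cells (log2 4.56) fell to 2.28 when cells carrying stromal markers were kept in the luminal gate, an alternative added after seeing the data. The *Fgfr2* ratio of luminal over stromal cells (5.14) was 4.93 after thinning, 4.97 in female cells, 4.63 in male cells and 4.97 without that exclusion. The 3 members past the fold in Mgp-KO became 1 after thinning and 1 with stromal subtypes weighted equally (added after seeing the data), and those in Pd-KO became 5 in female cells and 1 with equal weighting. For the ratios of single members, 182 of 282 alternative values lay within the counting interval of the value reported and 100 outside it. No ratio past the fold changed sign, but smaller ones did: *Fgf10* in Pd-KO (−0.05) was 0.42 in female cells, 0.15 after thinning and 0.19 and 0.74 with equal weighting of cells and of subtypes, *Fgf7* in Mgp-KO (0.24) was −0.20 after span matching, and in male cells Pd-KO over Mgp-KO was −0.27 for *Fgf18* (0.10) and −0.08 for *Fgf10* (0.32). *Fgf10* passed the fold downward after matching on its GENCODE span of 122 kb (−1.33 and −1.12), as did *Fgf1* in Mgp-KO after span matching (−1.20). *Fgf1* in Pd-KO over Mgp-KO (1.45) lost its call in male cells (0.85). *Fgf2* in Mgp-KO lost its call after thinning (0.98), median centring (0.95), span matching (0.60) and equal weighting of subtypes (0.80). The Mgp-KO call of *Fgfr3* was lost in male cells (−0.09), at the 5% mitochondrial limit (−0.97) and with equal weighting of subtypes (−0.70). Depth limits *Fgfr3*, *Fgfr4* and the small basal and Pd-KO luminal gates.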
